A study of Mus musculus with 2 samples.

Results

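Cytosolic ribosomal protein genes were followed through 2 single-cell RNA libraries of mouse retina. The set holds every gene symbol that starts with Rpl or Rps, apart from the 10 Rps6k genes, which encode kinases. This gave 95 of the 31053 genes in the count tables, and no measured value was used to choose them. They were divided by name into 77 core ribosomal protein genes, 9 paralogs or like-named genes and 9 symbols that contain -ps, the mark of a pseudogene. The core genes comprised 43 of the large subunit, 31 of the small subunit and 3 of the P stalk (Rplp0, Rplp1 and Rplp2).

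Each ribosome carries 1 copy of nearly every core protein, and the messages of these genes are short, abundant and long-lived. Many of them begin with a run of C and T bases at the cap, the terminal oligopyrimidine tract, through which mTOR signalling and LARP1 control their translation as a group. In single-cell data their summed share of the counts differs between cell types and with RNA quality. The mouse genome also holds many pseudogenes that arose when messages of ribosomal protein genes were copied back into DNA. Such copies lack introns and can match the parent gene base for base.

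One library was labelled wildtype, from C57BL/6 mice, and the other Igfbpl1-/-, lacking by its label a gene named for its likeness to the binding proteins of insulin-like growth factors. Both came from retinas of perfused mice aged 8 to 10 months, sorted by flow cytometry for CD45, which marks immune cells, microglia included, and sequenced with the 10x Chromium 3′ kit. The design text names 10 mice of each genotype with matched sexes, but not how many entered each library, and the allele is not described. Each group was 1 library, so nothing could be tested and every interval given is a 95% interval for counting error only. UMIs of Igfbpl1 itself were more frequent under the knockout label, with 29 UMIs in 27 cells against 1 UMI in 1 cell. This goes against the label unless the counted 3′ end lies outside the deleted part, so groups are called the knockout-labelled and the wildtype-labelled library throughout.

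The tables held 2735 barcodes with 11020717 unique molecular identifiers (UMIs, each counted as 1 captured message) in the wildtype-labelled library. The knockout-labelled library had 1785 barcodes with 7945713 UMIs. After filtering, 2687 and 1760 cells remained, with medians of 3907 and 4284.5 UMIs, and 1 barcode occurred in both libraries. Clustering was run without the 95 genes, so that their own counts did not enter it, but other genes of the translation machinery were kept. It gave 2445 and 1506 microglia-like cells (10 clusters), 106 and 106 border macrophage-like cells, 56 and 44 Müller glia- or astrocyte-like cells, and 6 smaller classes. All 12 microglia markers were counted in the microglia-like cells of both libraries, with summed levels of 34838 and 34275 counts per 1000000 UMIs (CPM). Monocyte markers summed to 702.6 CPM in the wildtype-labelled and 998.8 CPM in the knockout-labelled microglia-like cells, with 8 and 7 of the 10 markers counted and Ly6c2 and Chil3 at 0 in both. Their part in the results was not tested.

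The copies that bear on the comparison of libraries were those whose coding sequence matched their parent. Positions are those of GENCODE M21 on GRCm38 (mm10). Rps27, of the small subunit, has 4 exons at chr3:90212522-90213651 on the minus strand. Its copy Rps27rt has 1 exon at chr9:114982366-114982739, inside the gene Osbpl10 on the opposite strand. Rps12, also of the small subunit, has 5 exons at chr10:23785183-23787275 on the minus strand, and Rps12-ps3 has 1 exon at chr19:59322290-59322783, inside Pdzd8 on the opposite strand. Rpl10 has 7 exons at chrX:74270812-74273135 on the plus strand, and Rpl10-ps3 has 1 exon at chr9:50344201-50344968 with no overlapping gene. Rpl9, of the large subunit, has 8 exons at chr5:65388364-65391444 on the minus strand, and Rpl9-ps6 has 1 exon at chr19:32465865-32466578.

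The pairs Rps27 and Rps27rt (252 bases), Rps12 and Rps12-ps3 (396 bases), Rpl10 and Rpl10-ps3 (642 bases) and Rpl27 and Rpl27-ps3 (408 bases) had 0 differences over the parent's whole coding sequence without its stop codon. The last 60 bases of 3 of them are shown once each, since parent and copy have the same letters, as the part of the message nearest to where a 3′ kit reads.
Rps27 and Rps27rt: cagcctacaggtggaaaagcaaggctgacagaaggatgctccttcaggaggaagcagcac
Rps12 and Rps12-ps3: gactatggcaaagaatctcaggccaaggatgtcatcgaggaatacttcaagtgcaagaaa
Rpl10 and Rpl10-ps3: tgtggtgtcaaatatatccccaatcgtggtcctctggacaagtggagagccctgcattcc

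Rpl9-ps6 differed from Rpl9 at 1 of 576 coding bases, G266A counted from the first coding base, and Rpl13a-ps1 differed from Rpl13a at 29 of 609. Capitals in the following stretches mark the differences. The stretches show how a near-identical pair compares with a pair that a short read can tell apart, and with the expressed paralog Rps27l, which differed from Rps27 at 60 of 252 bases.
Rpl9: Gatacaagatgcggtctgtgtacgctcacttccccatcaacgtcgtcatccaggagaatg
Rpl9-ps6: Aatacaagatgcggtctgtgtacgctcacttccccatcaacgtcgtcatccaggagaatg
Rpl13a: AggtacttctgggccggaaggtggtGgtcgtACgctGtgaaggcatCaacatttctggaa
Rpl13a-ps1: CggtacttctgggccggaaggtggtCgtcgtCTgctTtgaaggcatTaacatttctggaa
Rps27: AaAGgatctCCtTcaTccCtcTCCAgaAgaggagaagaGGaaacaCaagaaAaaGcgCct
Rps27l: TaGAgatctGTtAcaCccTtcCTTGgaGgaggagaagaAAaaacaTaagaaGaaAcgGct

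How far a gene can be told from all others was measured over the last 300 bases of its transcript up to 50 bases after the stop codon, as the percentage of 50-base windows found in no other annotated gene elsewhere in the genome (unique percentage). It was 0% for Rps27, Rps27rt, Rps12, Rps12-ps3, Rpl10, Rpl10-ps3, Rpl27-ps3 and Rpl9-ps6, and 16.7% for Rpl27, 57.4% for Rpl13a and 59.8% for Rps27l. Over the 77 core genes, 9 were at 0%, 54 lay above 0% and up to 50%, and 14 were above 50%. Cell Ranger, which the submitters' processing notes name, by its documented default counts a read for a gene only where the read maps to 1 gene. The length of the reads was not given in the sources used here. The windows were looked up in all annotated genes, pseudogenes included, whether or not the count tables hold them. A unique percentage of 0% therefore does not mean that a gene could not be counted. In microglia-like cells Rpl21 (0%) had 1949 and 2046 CPM and Rps23 (0%) 1856 and 2053 CPM, while Rpl10 (0%) had 44.1 and 61.6 CPM.

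The start regions of the genes were looked up for the pyrimidine run. A C followed by at least 7 more C or T bases, on the gene's strand and starting within 20 bases of the annotated start, was present in 30 of the 57 core genes with a RefSeq entry (52.6%) and in 17.1% of 19341 other genes. In the 43 bases shown for 4 of them, from GRCm38.p6, the 26th base is the annotated start, and capitals mark the longest run. Rpl34 (chr3:130730320-130730362, minus strand), Rpl35 (chr2:39005114-39005156, minus strand) and Rpl27a (chr7:109519170-109519212, plus strand) carried runs of 20, 18 and 20 bases. Rpl27 (chr11:101442220-101442262, plus strand) had none longer than 4 in this window. The longest run over a gene's entries was used, shorter runs were not counted as present, and only annotated starts were searched. A gene without a run by this measure can therefore still carry the tract.
Rpl34: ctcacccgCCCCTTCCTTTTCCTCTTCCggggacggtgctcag
Rpl35: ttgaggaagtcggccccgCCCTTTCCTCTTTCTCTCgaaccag
Rpl27a: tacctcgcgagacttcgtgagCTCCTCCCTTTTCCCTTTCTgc
Rpl27: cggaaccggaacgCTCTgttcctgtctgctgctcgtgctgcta

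The core genes were a large part of the RNA counted in microglia-like cells, and the 2 libraries differed little in the typical cell. The median cell gave 11.53% of its UMIs to the 77 core genes in the wildtype-labelled library (quartiles 9.03% and 15.16%, range 0.34% to 56.5%). It was 11.64% in the knockout-labelled library (quartiles 8.99% and 16.16%, range 0.89% to 51.5%), so the cells of the libraries overlapped over nearly the whole range. Summed over cells, the share was 12.21% (12.19% to 12.23%) and 13.02% (12.99% to 13.04%), a ratio of 1.066 (1.063 to 1.069). Paralogs took 0.111% and 0.141%, and pseudogenes 0.0495% and 0.0789%. Counts from 3 genes that pick up ribosomal RNA (Gm42418, AY036118 and Gm26917) were also higher under the knockout label, at 0.163% and 0.225%, and their part in the result was not tested.

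The classes differed far more from each other than the libraries did within most of them. B cell-like cells gave the highest pooled share, 25.7% in the wildtype-labelled and 25.4% in the knockout-labelled library, followed by T cell-like cells (22.4% and 22.8%) and monocyte-like cells (20.1% and 19.6%). Border macrophage-like cells, defined by Mrc1, Pf4, Ms4a7 and class II genes, lay close to microglia-like cells, with 13.09% (12.99% to 13.19%) and 12.5% (12.4% to 12.6%). Neutrophil-like cells had 5.71% (5.45% to 5.99%) and 4.27% (4.05% to 4.51%), bipolar-like neurons 6.31% and 6.62%, and rod-like cells 12.7% and 12.6%. Müller glia- or astrocyte-like cells were lowest in the wildtype-labelled library, with 4.66% (4.59% to 4.74%) there and 5.10% (5.01% to 5.20%) in the other.

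**Figure D1:**
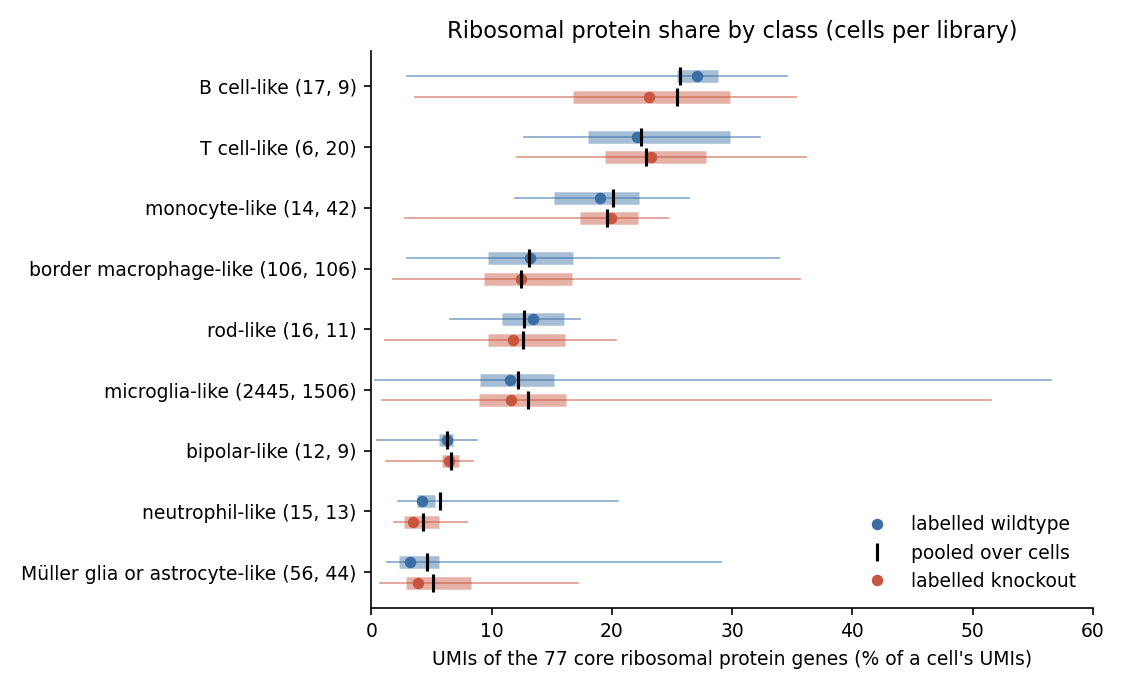
Share of each cell's UMIs taken by the 77 core ribosomal protein genes (horizontal axis, percent) in 9 classes, with the cells per library in brackets. Points are medians over cells, thick bars quartiles, thin lines the full range and black ticks the pooled share; B cell-like, T cell-like and monocyte-like cells lie above 15% at the median, and Müller glia- or astrocyte-like, neutrophil-like and bipolar-like cells below 7%.

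Among cells of 2000 to 5000 UMIs, which evens out depth, the median share of microglia-like cells was 10.57% and 10.97%. The border macrophage-like median exceeded the microglia-like one by 1.69 and 0.84 percentage points over all cells, and by 0.48 and 2.01 percentage points in that band of depth. The Müller glia- or astrocyte-like median minus the microglia-like one was -8.30 and -7.80 percentage points, so this gap was several times larger than that between the 2 macrophage classes. T cell-like cells of the wildtype-labelled library numbered 6 and B cell-like cells of the knockout-labelled library 9, so these shares rest on few cells. Counts from free RNA in the suspension were not removed.

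Within the microglia-like cells, a single cluster held the highest shares. The cluster was led by Fau, which encodes a ribosomal protein whose symbol lacks the prefix. Eef1b2, Eif3f and mitochondrial genes were also among its leading genes, and no microglia marker was among its first 10. The cluster was placed by its mean marker level, each marker taken relative to the cluster where it was highest. That value was 0.474 for the microglia markers, and 67.1% of the cells had a P2ry12 UMI. Its 450 and 324 cells had median shares of 22.0% and 24.4%, on median depths of 1475.5 and 1780.5 UMIs. Fau, Eef1b2 and Eif3f had stayed in the clustering. Over all microglia-like cells the core share had a Spearman correlation of 0.763 and 0.787 with the elongation factor share. The high share of this cluster is therefore not independent of the genes that formed it. The nuclear RNA Malat1 was nearly missing from it, with 0.0141% and 0.0101% of the UMIs, and 93.1% and 93.2% of its cells had no Malat1 UMI. Mitochondrial genes took 2.86% and 2.84% there, against 1.37% and 1.45% over all microglia-like cells.

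The opposite pattern appeared in the cluster led by Ercc5 and Malat1, with 43 and 53 cells. There the median cell gave 2.11% and 2.59% of its UMIs to the core genes, Malat1 took 7.08% and 6.50%, and no cell lacked Malat1. In the 8 other clusters the pooled core share ran from 9.40% to 17.0%. The cluster led by Fabp5 and Spp1 (27 and 31 cells), which also carried Gpnmb, Lgals3 and Cst7, was at 13.6% in the wildtype-labelled and 17.0% in the knockout-labelled library. Its mean microglia marker level, 0.236, was the lowest of the microglia-like clusters. A P2ry12 UMI was present in 46.6% of its cells, and no microglia marker was among its leading genes, so its place in this class is weakly based. Over single cells, the Spearman correlation of the core share with the Malat1 share was -0.649 (2445 cells) and -0.713 (1506 cells). Without the Fau-led cluster it was -0.419 and -0.526. Both shares are parts of the same total, and these values are descriptions. The part of RNA quality in these shares was not tested.

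**Figure D2:**
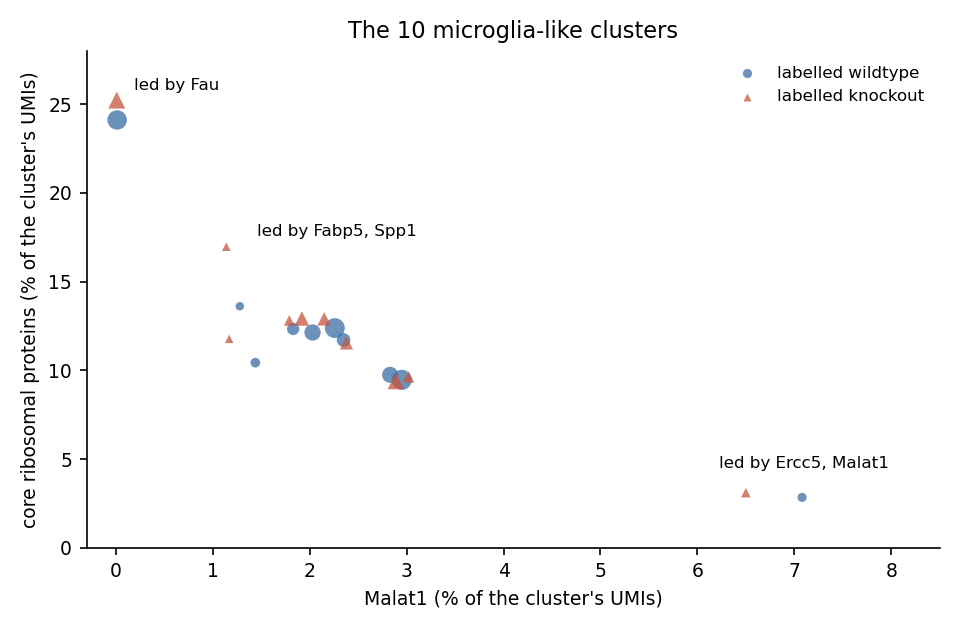
Share of UMIs taken by the core ribosomal protein genes (vertical axis, percent) against that of Malat1 (horizontal axis, percent) in the 10 microglia-like clusters, with 1 symbol per cluster and library, larger for more cells. The cluster led by Fau sits at the upper left with 24.1% and 25.2% core counts, the one led by Ercc5 and Malat1 at the lower right with 2.84% and 3.11%.

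Depth showed the same division. Microglia-like cells were split by their UMIs into 5 equal bins within each library. From the shallowest to the deepest bin the median core share was 20.2%, 10.6%, 9.95%, 10.9% and 11.6% in the wildtype-labelled library. In the knockout-labelled library it was 19.6%, 12.2%, 10.2%, 10.7% and 12.1%. The shallowest bin stood apart and the other 4 lay within 3 percentage points of each other. With each cell thinned to 1000 UMIs, the shallowest bin still had medians of 20.7% and 21.3% and the deepest 11.5% and 12.2%.

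The Fau-led cluster supplied 74.6% and 68.2% of the cells of the shallowest bin. Without it, the shallowest bin had the lowest median of the 5, 8.75% over 124 cells and 4.17% over 96 cells. The Spearman correlation of share with UMIs was -0.242 and -0.182 over all microglia-like cells, and 0.193 and 0.287 without that cluster. The direction of the change with depth therefore rested on 1 cluster in both libraries, and that cluster was itself led by a ribosomal protein gene.

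**Figure D3:**
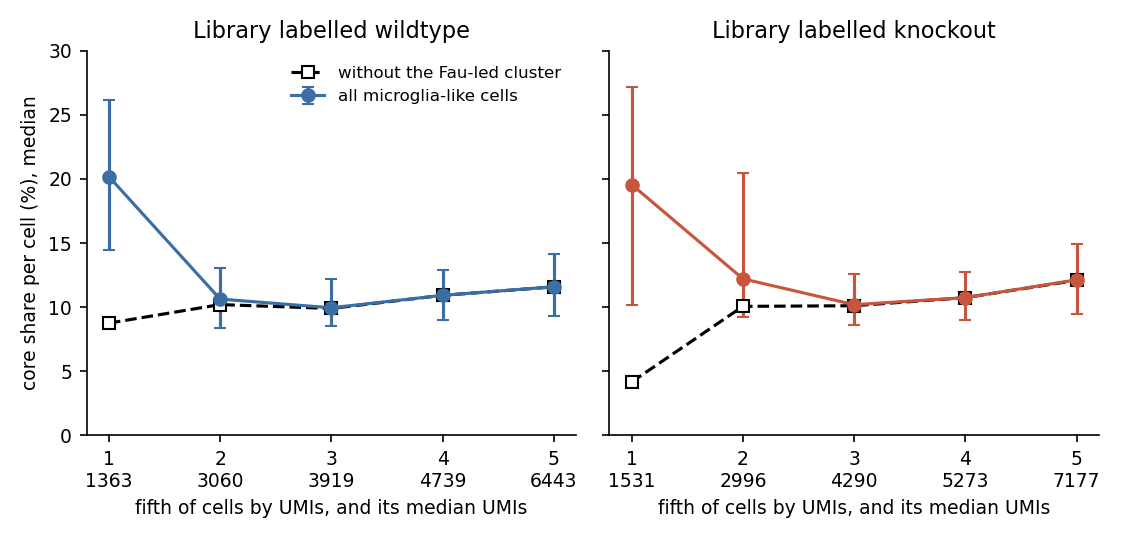
Median core share per microglia-like cell (vertical axis, percent, bars from the lower to the upper quartile) in 5 equal bins of cells by UMIs (horizontal axis, with the median UMIs of each bin), for each library. Open squares give the median without the Fau-led cluster, which lies at 8.75% and 4.17% in the shallowest bin against 20.2% and 19.6% with it.

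Over all microglia-like cells, the core genes moved with depth nearly as a block. These cells include the Fau-led cluster, which made up 74.6% and 68.2% of the shallowest bin and 0.409% and 0.997% of the deepest. Single genes were not compared without that cluster. Between the shallowest and deepest bin, 76 of the 77 had a lower CPM in the deepest bin in both libraries, and the median log2 ratio of deepest to shallowest was -0.74 and -0.55. Over the 3394 genes at 50 CPM or more the medians were 0.33 and 0.25, and 20.2% of them were lower in the deepest bin in both libraries. Rps26 was among the furthest apart, at 2497 CPM in the shallowest and 1333 CPM in the deepest bin of the wildtype-labelled library, and at 2294 and 1301 CPM in the other. Rps29 (log2 ratios -0.89 and -0.77), Rpl35 (-0.93 and -0.66) and Rpl39 (-0.91 and -0.65) followed. Rpl10 (log2 ratios 0.09 and -0.13) and Rpl23a (-0.18 and -0.12) had intervals that include 0 in both libraries. Rps15 (-0.42 and -0.31) came next, and no core gene was higher in the deepest bin of both libraries.

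Between the libraries, most core genes were slightly higher under the knockout label in microglia-like cells. The ratio of CPM (knockout label over wildtype label) had a median log2 of 0.090 over the 77 core genes, with 64 above 0 and 13 below. Over the 3228 genes with at least 50 CPM in 1 library the median log2 was -0.029. All 77 core genes, 6 of 9 paralogs and 4 of 9 pseudogenes reached 50 CPM in 1 library. Core genes at least 1.2-fold higher numbered 16, where 4.74% of all genes tested were, and 0 were 1.2-fold lower, where 7.31% were.

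At 1.5-fold, 3 core genes were higher and 0 lower, against 0.743% and 0.465% of all genes tested. They were Rpl27 and Rpl13a of the large subunit and Rps12 of the small subunit. All 3 are among the least abundant core genes as counted here, and at a minimum of 200 CPM no core gene was 1.5-fold apart. Without the clusters led by Fau and by Ercc5 and Malat1, the number at 1.5-fold was 1, with Rpl27 above the threshold.

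None of the 6 most abundant core genes was 1.2-fold apart. Rps29, a small zinc-binding protein of the small subunit, was the most abundant at 5390 CPM in the wildtype-labelled and 6447 CPM in the knockout-labelled library (ratio 1.196, 1.181 to 1.211). Rps24 had 3598 and 3585 CPM (0.996), Rpl39 3275 and 3368 CPM (1.028), and Rplp1, a P stalk protein, 3002 and 3593 CPM (1.197, 1.177 to 1.218). Rpl37a had 3092 and 3337 CPM (1.079) and Rpl13 3052 and 3145 CPM (1.03). Of these 6 genes, Rps29 and Rplp1 had the highest ratios and Rps24 the lowest, with an interval that includes 1. These are levels of counted 3′ ends, which are not divided by gene length.

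The lowest ratios were small departures. Rps4x, the X-linked small subunit gene, had 2391 and 2288 CPM and the lowest ratio of the core set, 0.957 (0.938 to 0.977). Its ratio was below 1 in all 8 other classes too, with the interval below 1 in 4 of them, for example 0.824 (0.753 to 0.9002) in border macrophage-like cells. Rps26 (0.967), Rps9 (0.978), Rpsa (0.982), Rps20 (0.984), Rpl3 (0.992) and Rpl19 (0.994) were also among the lowest, and the intervals of the last 4 include 1.

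Most of the highest ratios belonged to genes counted below 1000 CPM. Rpl27 had 309 UMIs (31.3 CPM) in the wildtype-labelled and 449 UMIs (66.7 CPM) in the knockout-labelled library, a ratio of 2.13 (1.84 to 2.47). It reached 50 CPM only in the library where it was higher, and so did Rpl10, with 44.1 and 61.6 CPM (1.398, 1.219 to 1.602). Rpl13a, known also for its part in repressing inflammatory messages in macrophages, had 126.2 and 192.4 CPM (1.53, 1.41 to 1.65). Rps12 had 54.5 and 82.9 CPM (1.52, 1.35 to 1.71). Rps15 (463.7 and 607.2 CPM, 1.31), Rps27 (116.9 and 145.5 CPM, 1.25), Rpl17 (1087 and 1349 CPM, 1.24) and Rpl5 (413.7 and 512.7 CPM, 1.24), a large subunit protein that also binds 5S RNA and Mdm2, made up the 8 highest. The remaining 8 that passed 1.2-fold lay between 1.201 and 1.238 and included Rps6, the substrate of the ribosomal S6 kinases, with 501.4 and 616.7 CPM (1.23).

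The copies departed in the same direction. Rpl10-ps3 had 82.8 CPM in the wildtype-labelled and 168.4 CPM in the knockout-labelled library (2.03, 1.86 to 2.23). Rps27rt had 257.1 and 458.0 CPM (1.78, 1.69 to 1.88), Rps12-ps3 102.7 and 170.3 CPM (1.66, 1.52 to 1.81) and Rpl27-ps3 62.1 and 102.9 CPM (1.66, 1.48 to 1.85). In each of these 4 pairs the copy was counted at a higher level than its parent in both libraries. Rpl9-ps6 had 199.1 and 269.6 CPM (1.35, 1.27 to 1.44) beside 253.2 and 279.9 CPM for Rpl9 (1.11, 1.04 to 1.17). Rpl36a-ps1 (23.1 and 39.1 CPM, 1.69), Rpl7a-ps5 (15.7 and 22.9 CPM, 1.46, beside 458.5 and 547.0 CPM for Rpl7a) and Rpl13a-ps1 (7.08 and 14.1 CPM, 1.99) stayed below 50 CPM. Rpl9-ps1, with 20 and 14 UMIs, had a ratio of 1.03 (0.480 to 2.14), and Rpl36-ps4 had no UMI in microglia-like cells of either library.

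The expressed paralogs were less uniform. Rpl36al, a second gene for the large subunit protein that Rpl36a encodes, had 234.7 and 318.2 CPM (1.36, 1.28 to 1.44), beside 644.8 and 716.1 CPM for Rpl36a (1.11). Rps27l, a p53-induced relative of Rps27, had 165.5 and 193.5 CPM (1.17, 1.09 to 1.26). Rpl22l1, a paralog of Rpl22, was slightly lower under the knockout label, with 313.1 and 292.3 CPM (0.934, 0.882 to 0.988), while Rpl22 had a ratio of 1.06 (1.03 to 1.09). Rpl7l1 (95.4 and 97.0 CPM) and Rps19bp1, which encodes a binding protein of Rps19 and no ribosomal protein (44.9 and 50.5 CPM), had intervals that include 1. Rpl39l, with 39 and 17 UMIs, and Rpl10l, with 2 and 7, were counted in few cells.

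**Figure D4:**
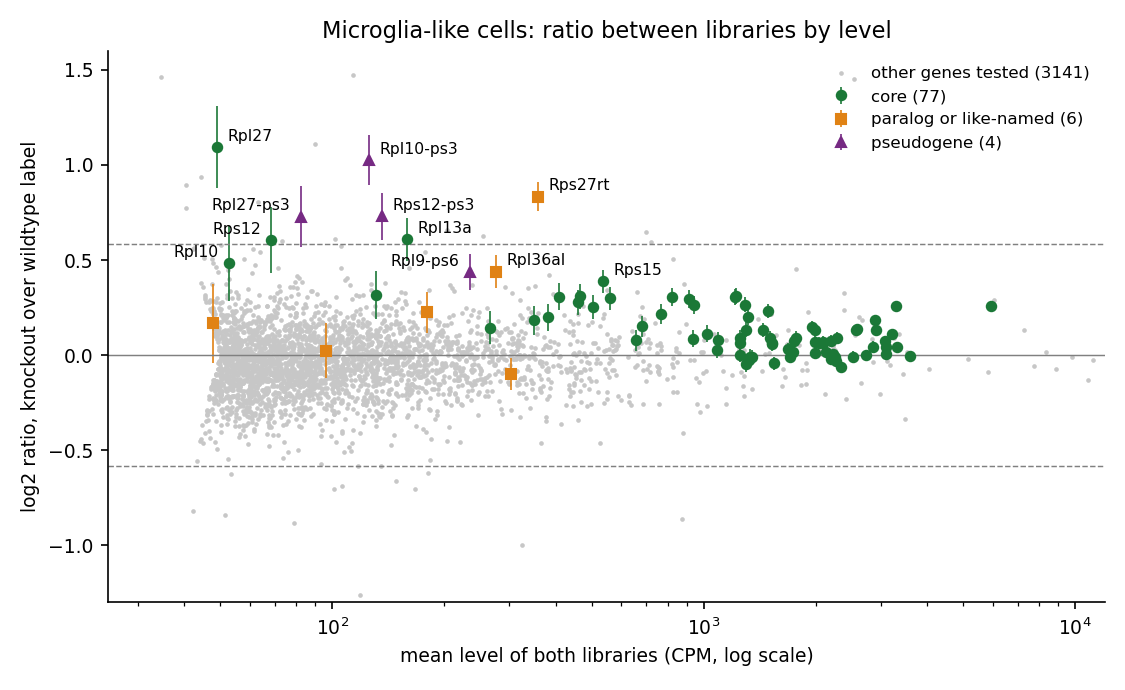
Log2 ratio of CPM between the libraries in microglia-like cells (vertical axis, knockout over wildtype label) against the mean level of both libraries (horizontal axis, CPM, log scale), with 95% counting intervals for the members and dashed lines at 1.5-fold. Core genes under 1000 CPM all lie above 0 (21 of 21), while those at 2000 CPM or more lie close to it; 9 other genes fall outside the axes.

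The counts of a parent and its copies were also summed. The ratio of such a sum always lies between the ratios of its parts, so the sums only describe the families. The part of read sharing between parent and copy was not tested by them. The sum of Rpl10, Rpl10-ps3 and Rpl10l was 127.1 and 231.0 CPM (1.82, 1.69 to 1.96), and that of Rpl27 and Rpl27-ps3 was 93.3 and 169.6 CPM (1.82, 1.66 to 1.98). Rps12 with Rps12-ps3 had 157.2 and 253.1 CPM (1.61, 1.502 to 1.726), and Rps27 with Rps27rt and Rps27l had 539.5 and 797.0 CPM (1.48, 1.42 to 1.54). In each of these families parent and copy were both higher under the knockout label. Pseudogenes of these families outside the 95 symbols were not summed.

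The size of the departure went with the level at which a core gene was counted. The 21 core genes with a mean under 1000 CPM had a median log2 ratio of 0.293, all 21 were above 0 and 13 were at least 1.2-fold higher. The 3060 other genes tested with a mean under 1000 CPM had a median of -0.035. Core genes of 1000 to 2000 CPM (30 genes) had a median of 0.073 and those of 2000 CPM or more (26 genes) 0.055. Across the 77 core genes, the Spearman correlation of the ratio with the level was -0.562 and with the unique percentage -0.229, and level and unique percentage correlated at 0.377. Genes are not independent replicates, and these values share the same 2 libraries.

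Core genes with a unique percentage of 0% (9 genes) had a median log2 ratio of 0.306, beside 0.082 for the 54 genes up to 50% and 0.079 for the 14 above 50%. Outside the set, 18 genes with a unique percentage of 0% had a median of 0.081 and 2877 genes above 50% one of -0.038. Rack1, a small subunit protein without the prefix whose unique percentage is 100%, nevertheless had 484.1 and 613.0 CPM (1.27, 1.21 to 1.32). Rpl13a passed 1.5-fold with 57.4% unique windows, but 90.8% of its windows also lie in an overlapping gene at the same locus and on the same strand, Gm45713, which the unique percentage does not count against it. The part of read mapping in these ratios was not tested.

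The same 21 genes, chosen by their level in microglia-like cells, were examined in the other classes. Their pooled ratio exceeded that of the 26 most abundant core genes in all 9 classes, with intervals apart in 5 classes, microglia-like cells among them. In border macrophage-like cells the 21 genes had a pooled ratio of 1.08 (1.03 to 1.12) and the 26 genes one of 0.949 (0.934 to 0.964). In Müller glia- or astrocyte-like cells they were 1.24 (1.15 to 1.35) and 1.06 (1.02 to 1.096), and in B cell-like cells 1.17 (1.06 to 1.298) and 0.981 (0.946 to 1.02). Within microglia-like cells the order was the same in all 10 clusters, with intervals apart in 8. The classes and clusters share the same 2 libraries and are not replicates.

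The departing genes were also counted in the other classes. In border macrophage-like cells Rpl27 had 8 and 25 UMIs (ratio 3.14, 1.37 to 8.06), Rpl10-ps3 51 and 78 (1.54, 1.07 to 2.23) and Rps27rt 132 and 190 (1.45, 1.15 to 1.82). In monocyte-like cells Rps27rt had 29 and 221 UMIs (2.48, 1.68 to 3.79) and Rpl10-ps3 7 and 71 (3.30, 1.52 to 8.51). Rps27rt was above 1 in all 8 other classes. Rpl27 was above 1 in the 6 other classes with counts in both libraries, but had 3 and 0 UMIs in neutrophil-like cells, and Rps12-ps3 was above 1 in 7 such classes, but had 7 and 0 UMIs in rod-like cells. Several of these classes hold 1 to 4 UMIs of the gene in a library. Neutrophil-like cells had ratios not above 1 for Rpl10-ps3, Rpl13a, Rpl27-ps3 and Rps12, on 1 to 4 UMIs a library, and B cell-like cells for Rpl13a, on 13 and 5 UMIs. Rpl10-ps3 had 1 and 0 UMIs in rod-like and 3 and 0 in bipolar-like cells, and Rps12 2 and 0 in rod-like cells.

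**Figure D5:**
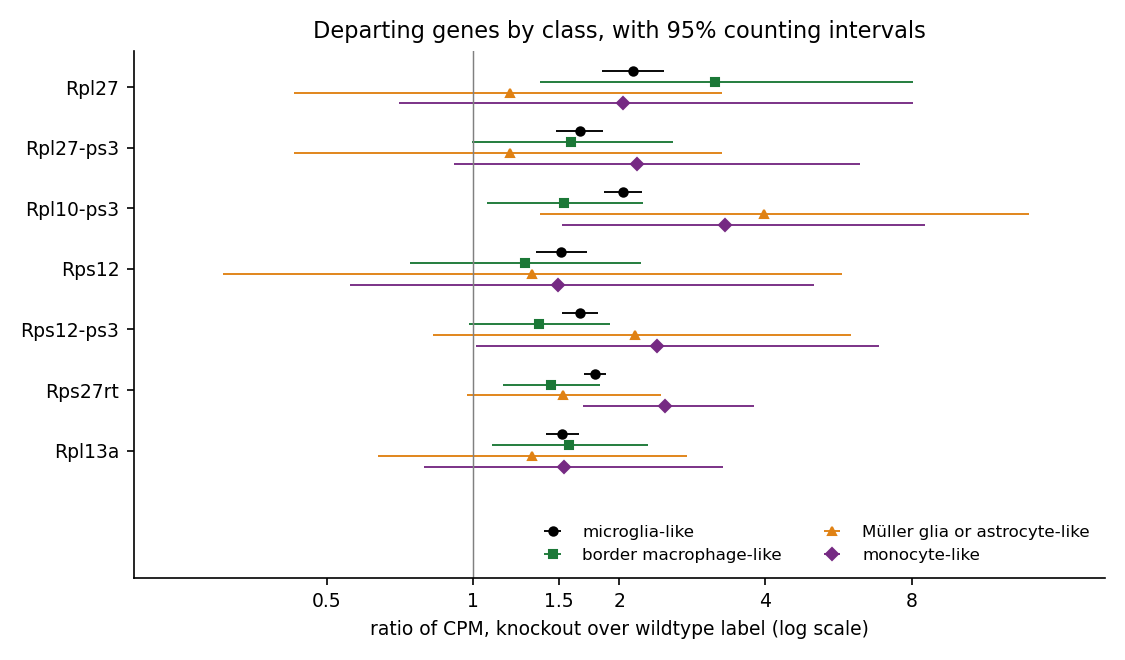
Ratio of CPM (horizontal axis, knockout over wildtype label, log scale) with its 95% counting interval for the 7 members at least 1.5-fold apart over all microglia-like cells, in the 4 classes with the most cells. The 7 genes were chosen by their microglia-like ratios, which are therefore above 1 by that choice. The ratios drawn for the other classes also lie above 1, with wide intervals. Classes not drawn include ratios below 1, for example 0.492 for Rpl13a in neutrophil-like and 0.670 in B cell-like cells.

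The core set as a whole did not go the same way in every class. Its median log2 ratio was 0.176 in Müller glia- or astrocyte-like cells, with 60 of 77 genes above 0, and -0.079 in border macrophage-like cells, with 26 of 77 above 0. It was -0.464 in neutrophil-like cells, with 13 above 0, on 15 and 13 cells. Monocyte-like (-0.001), T cell-like (0.053), B cell-like (-0.013), rod-like (-0.020) and bipolar-like cells (0.045) lay near 0. The medians over all genes were -0.033, -0.181, 0.215, 0.478 and 0.039 in these classes, so the core median was below that of all genes in rod-like and B cell-like cells and above it in T cell-like cells. Whether the classes differ in this was not tested.

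The stoichiometry of the core set hardly differed between the 2 macrophage classes. Relative to the core median, no core gene was 1.5-fold above or below its microglia-like level in border macrophage-like cells of both libraries. Of 3119 genes tested, 5.39% were above and 19% below by that measure. The median log2 difference was -0.303 and -0.287 over these genes and 0.086 and -0.084 over the core genes. The 2 percentages are therefore shifted towards the lower side, and they are no like measure of spread for the core set. Rps29 (relative log2 differences 0.27 and 0.32), Rpl38 (0.22 and 0.36) and Rpl28 (0.21 and 0.31) lay above in both libraries. Rpl10 and Rpl27, with few counts in border macrophage-like cells, had larger differences in 1 library only. Rplp0, the P stalk protein that anchors Rplp1 and Rplp2, lay below, with 1708 CPM in microglia-like and 1395 CPM in border macrophage-like cells of the wildtype-labelled library, and 1699 and 1176 CPM in the other (-0.38 and -0.45).

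A few paralogs differed in level between classes. Rpl3l, a paralog of Rpl3 best known from heart and skeletal muscle, had 2 UMIs in 1 of 14 monocyte-like cells of the wildtype-labelled library and 30 UMIs in 14 of 42 of the knockout-labelled one. It had 1 UMI in neutrophil-like cells of the knockout-labelled library. In the microglia-like cells it had 0 UMIs and 1 UMI, on median depths of 3919 and 4289.5 UMIs against 6019 and 5258 in monocyte-like cells. Rpl22l1 was highest in lymphoid cells, with 792.0 and 829.2 CPM in T cell-like and 906.9 and 728.9 CPM in B cell-like cells, against 313.1 and 292.3 CPM in microglia-like cells. Rpl39l was counted in 31 and 14 microglia-like cells, in 3 and 2 border macrophage-like cells and in 1 Müller glia- or astrocyte-like cell of the knockout-labelled library.

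Other genes of the translation machinery gave the setting for these values. None of the 6 elongation factor genes tested was 1.2-fold apart (median log2 0.066). Eef1a1, which delivers aminoacyl-tRNA, had 3506 and 3552 CPM (1.01), and Eef2, the translocation factor, 330.8 and 385.9 CPM (1.17, 1.11 to 1.23). Among 33 initiation factors and further terminal oligopyrimidine genes, 3 passed 1.2-fold upwards and 0 downwards (median log2 -0.006), where 4.74% and 7.31% of all genes did. The higher ones included Tpt1, with 2119 and 2662 CPM (1.26, 1.23 to 1.28), and Vim, an intermediate filament gene, with 18.4 and 50.8 CPM (2.76). The other of the 3 was Eif3g, with 45.7 and 55.4 CPM (1.212, 1.054 to 1.393). Vim and Eif3g reached 50 CPM only in the library where they were higher. Vim is also a leading gene of the cluster led by Fabp5 and Spp1, which held 27 of 2445 and 31 of 1506 microglia-like cells. The part of that cluster was not tested. Pabpc1, which binds poly(A) tails, had 411.5 and 354.7 CPM (0.862, 0.819 to 0.907).

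Of 16 ribosome biogenesis genes tested, 14 were below 0 (median log2 -0.104), beside 1859 of all 3228 genes (median log2 -0.029), and none was 1.2-fold lower. Ncl, which encodes the nucleolar protein nucleolin, had 331.2 and 297.5 CPM (0.898, 0.849 to 0.9501), and Gnl3 112.0 and 95.9 CPM (0.856, 0.776 to 0.944). Among 17 genes of the mTOR pathway and other controls of ribosomal protein translation the median was -0.031 and none was 1.2-fold apart, with Rictor lowest at 61.0 and 51.2 CPM (0.84, 0.734 to 0.961). Mitochondrial ribosomal protein genes (34 tested) had a median of 0.043 and none was 1.2-fold apart. Mrpl34 was highest at 49.6 and 58.2 CPM (1.175, 1.026 to 1.344), and it reached 50 CPM only in the library where it was higher. Fau, a ribosomal protein gene outside the prefix, had 5186 and 5116 CPM (0.987).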

How the data were processed

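The authors deposited 1 table of raw counts per library, whole numbers of UMIs per gene and barcode not normalized. Cell Ranger 3.1 and the build mm10 are named in the submitters' processing notes. Barcodes with at least 500 UMIs, 250 genes and at most 15% mitochondrial counts were kept. Scrublet called 8 and 1 doublets (0.297% and 0.0568%), too few for the call to be relied on, so doublets may remain among the cells. Cells were clustered in scanpy 1.11.5 (2000 variable genes without the members, 30 components, 15 neighbours, Leiden resolution 1), and clusters were named from marker lists.

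Counts were summed per library and class and scaled to CPM. Intervals are exact: Clopper-Pearson for shares, and the split of a gene's counts for ratios. The computation of ratios and the thinning were checked on simulated counts. Genes were called at 50 CPM in 1 library and a fold of 1.2 or 1.5. Named were the 6 most abundant core genes, the 8 highest and 8 lowest ratios, members 1.5-fold apart, copies of 20 CPM or more with their parents, genes extreme by depth or class, and the ends of each list; others, such as Rpl3l, Rpl39l, Rps6, Rack1 and Rps4x by class, were chosen after their values were seen. Members, lists and tests were chosen with earlier results of these data known. Some genes that this rule names are not reported here.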

Additional observations from a re-analysis of the deposited data

Results flagged for a closer look

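The pooled core share went opposite ways in the 2 macrophage classes. Pooled over border macrophage-like cells, the knockout-labelled library had 0.954 times the core share of the wildtype-labelled one (0.943 to 0.965), while in microglia-like cells it had 1.066 times (1.063 to 1.069). The difference between the classes was not tested, since each library was made once. The median cell of the border macrophage-like class was at 13.2% and 12.5%, with quartiles of 9.70% to 16.8% and 9.33% to 16.7%. Among cells of 2000 to 5000 UMIs the medians went the same way, 11.06% and 12.97% in border macrophage-like cells and 10.57% and 10.97% in microglia-like cells. The 21 core genes with a mean under 1000 CPM in microglia-like cells had pooled ratios above 1 in both classes, 1.187 in microglia-like cells with 21 genes above 1 and 1.075 in border macrophage-like cells with 13 above 1.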

How the results depend on the processing

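No paired analysis was possible because each group is 1 library. Settings that leave out clusters, use the median cell, or count at 1.2-fold were chosen after seeing the data. Values are wildtype-labelled then knockout-labelled. The pooled core share of microglia-like cells (12.21% and 13.02%) was 12.03% and 12.92% with a stricter cell filter, 12.28% and 13.12% when the members entered the clustering, and 12.17% and 13.12% over all kept cells. It was 11.27% and 11.84% without the clusters led by Fau and by Ercc5 and Malat1, 12.18% and 12.8% without the one led by Fabp5 and Spp1, 13.34% and 13.9% with equal weight per cell, and 12.69% and 13.53% without mitochondrial, rRNA-derived and Malat1 counts. The log2 ratio of the shares (0.092) was 0.1033 with the stricter filter, 0.1081 over all kept cells, 0.0717 and 0.0711 without those clusters in turn, 0.0592 with equal weight and 0.0138 for the median cell. The median log2 ratio of core genes (0.090) was 0.0499 with equal weight. Core genes at 1.5-fold (3) numbered 1 without the clusters led by Fau and by Ercc5 and Malat1, and 0 at a minimum of 200 CPM.

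The deepest minus the shallowest bin (-8.59 and -7.43 percentage points) was -9.654 and -11.07 with bins by the UMIs of other genes, -9.2 and -9.1 with thinned cells, -7.459 and -7.868 with the stricter filter, and -7.727 in the knockout-labelled library with the reduced denominator. It reversed to 1.97 and 3.179 without the Fau-led cluster. The border macrophage-like minus microglia-like median (1.69 and 0.84) was 0.4847 and 2.005 at 2000 to 5000 UMIs, 2.525 and 1.771 without both clusters, and 0.6538 in the knockout-labelled library with the members in the clustering. The Müller glia- or astrocyte-like difference (-8.30 and -7.80) was -8.521 and -8.242 with the members in the clustering, and -7.463 and -6.867 without both clusters. At 2000 to 5000 UMIs this difference was -8.435 and -8.237, on only 21 and 9 Müller glia- or astrocyte-like cells. The cause of these shifts was not tested. The other 44 values computed for these results kept their direction and shifted by no more than counting error or, for counts of genes, 1.5 times. Among the 7 members at 1.5-fold, Rpl27 ranged from 1.817 to 3.018 over 10 settings and stayed above 1.5, as did Rpl10-ps3 and Rps27rt. Rpl13a fell to 1.477 and Rps12 to 1.421 without the clusters led by Fau and by Ercc5 and Malat1, Rpl13a to a log2 ratio of 0.57 without the one led by Fabp5 and Spp1, and Rpl27-ps3 to 1.46 and Rps12-ps3 to 1.474 with thinned cells.

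Depth limits the sparse members: Rpl27 rests on 309 and 449 UMIs, and most classes hold under 50 cells a library. Counting intervals leave out variation between mice, which 1 library per group cannot show.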
